A study of Mus musculus with 12 samples.

Results

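Corneodesmosin (Cdsn) and 6 keratins of simple, ductal and mucosal epithelia (Krt7, Krt8, Krt13, Krt18, Krt19 and Krt20) were followed in MC38, a mouse colorectal cancer cell line, after nintedanib, X-rays or both. The 7 genes were taken by symbol from a deposited table of 54532 genes. Measured values had entered the choice: Cdsn was selected on its lower level with the drug and Krt13 on its higher level with radiation, both in these same libraries. Those differences are given here as descriptions, with no test. Tests of Cdsn and Krt13 in other contrasts reuse libraries that entered the choice, so they are not independent of it.

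RNA was sequenced from 12 cultures of the same line, 3 in each of 4 groups. The combination group received 3 µM nintedanib and 8 Gy of X-rays, the nintedanib group the drug alone at 3 µM, the radiation group 8 Gy alone, and the control group neither. The labels give 24 hours for the treatments and state that the experiment was repeated independently 3 times. Nintedanib inhibits the receptor tyrosine kinases of VEGF, FGF and PDGF, and X-rays break DNA. The comparisons ask what each treatment changed alone, what it changed on top of the other, and whether the 2 effects were additive.

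Keratins are the intermediate filament proteins of epithelial cells and assemble only as pairs of a type I and a type II chain. Krt8 (type II) and Krt18 (type I) form the main pair of simple epithelia such as the gut lining, where Krt19 and, in mature cells, Krt20 add further type I chains. Krt7 is a type II keratin of ducts. Krt13 is a type I keratin of the moist stratified linings of mouth and oesophagus. Corneodesmosin is a secreted adhesion protein of the epidermis and the hair follicle. It is built into desmosomes as skin cells cornify, and kallikrein proteases cut it when dead cells are shed.

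The promoter windows of Cdsn and Krt13 are shown first, as these genes carried the drug and the radiation difference. Each is the 250 bases before the start of the gene in the deposited table, 5′ to 3′ on the gene's strand, from RefSeq (GRCm38.p6). The Cdsn window is chr17:35551878-35552127 on the plus strand, and the Krt13 window is chr11:100121567-100121816 on the minus strand. Capitals mark a match to the AP-1 motif.
Cdsn: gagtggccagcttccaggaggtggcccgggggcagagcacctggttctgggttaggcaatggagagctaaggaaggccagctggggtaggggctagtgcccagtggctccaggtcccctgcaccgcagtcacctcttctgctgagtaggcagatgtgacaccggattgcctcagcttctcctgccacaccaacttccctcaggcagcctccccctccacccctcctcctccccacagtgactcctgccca
Krt13: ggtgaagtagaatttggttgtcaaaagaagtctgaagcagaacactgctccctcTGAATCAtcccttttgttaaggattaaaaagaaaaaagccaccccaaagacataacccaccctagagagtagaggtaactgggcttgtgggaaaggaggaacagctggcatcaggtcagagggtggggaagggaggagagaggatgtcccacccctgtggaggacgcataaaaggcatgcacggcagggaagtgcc
Both strands were searched for 4 motifs: a TATA box (TATAAA), an AP-1 site (TGANTCA), an ATF4 composite site (TGATGNAA) and a GC box (GGGCGG). The Krt13 window held 1 AP-1 match, at 196 to 190 bases before the start. The Cdsn window held none of the 4. Over 32851 RefSeq promoters of the same length, 12.4% held the TATA box, 6.7% the AP-1 site, 3.5% the ATF4 site and 32.7% the GC box. The Cdsn window was 64.0% G and C and the Krt13 window 50.4%, beside a median of 52.4% over all promoters. RefSeq matched 6 of the 7 genes, all but Krt19, and gave Cdsn and Krt13 a second start each, which is not shown. The 250 bases before the second Krt13 start held 2 AP-1 matches, at 183 to 177 and at 34 to 28 bases before it. Those before the second Cdsn start held none of the 4 motifs.

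Expression is given as FPKM, fragments scaled to gene length and library depth. The libraries held 16103528 to 18196615 fragments in genes, so that 1 FPKM in a gene of 1 kb stood for 16.4 to 18.7 fragments. Genes with at least 1 FPKM in at least 3 libraries were tested, 13012 in all. Differences were taken on log2(FPKM + 1), where changes at low FPKM appear smaller than they were. The third nintedanib library stood apart in a small RNA gene of 57 bases, Gm23935, with 610 FPKM there against 12850 to 32370 FPKM in the other 11 libraries. Values without it are given where they bear on a result. The labelled colorectal identity was checked on 10 colon epithelium markers. Of these, Cdh1 and Lgals4 reached 1 FPKM, while Epcam, Fabp1 and Tff3 were listed at 0 in every library. All 10 mesenchymal markers reached 1 FPKM, among them Vim at 498 to 618 FPKM and Sparc at 671 to 948 FPKM. In bulk RNA, fewer cells of a type and less RNA per cell cannot be told apart.

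Cdsn was the most abundant of the 7 genes in control cells and stood far lower in every nintedanib-treated library. The gene (ENSMUSG00000039518) lies at chr17:35552128-35557180 on the plus strand in GRCm38. It measured 5.63, 6.24 and 4.60 FPKM in the combination libraries, 7.58, 9.32 and 8.39 FPKM with nintedanib, 49.9, 31.4 and 41.2 FPKM with radiation and 51.2, 61.1 and 48.9 FPKM in controls. All 6 libraries with the drug were below all 6 without it, and the irradiated and control ranges overlapped. The means were 5.49 ± 0.826 FPKM in the combination, 8.43 ± 0.87 FPKM with nintedanib, 40.83 ± 9.23 FPKM with radiation and 53.73 ± 6.48 FPKM in controls (SD, n = 3 each). These levels rested on 218 to 298 fragments a library in the combination, 362 to 443 with nintedanib, 1573 to 2185 with radiation and 2263 to 2831 in controls. 

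With nintedanib alone the mean Cdsn level was 15.7% of the control level, a log2 difference of -2.54 ± 0.157 (SE). With the combination it was 13.4% of the level in irradiated cells, a log2 difference of -2.67, and 10.2% of the control level, a log2 difference of -3.08. If the ratios of both single treatments to control had multiplied, 11.9% would have been left, and the difference of drug effects between irradiated and unirradiated cells was -0.14 ± 0.221 (SE, log2). These 4 differences include the contrast that chose the gene and carry no test.

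Radiation had a smaller Cdsn difference that did not pass the test in either background. The irradiated mean was 76.0% of the control mean, a log2 difference of -0.41 ± 0.157 (SE; limma, Benjamini-Hochberg adjusted p = 0.0974). The combination mean was 65.1% of the nintedanib mean, a log2 difference of -0.54 (limma, adjusted p = 0.0702), although the 3 combination libraries all lay below the 3 nintedanib libraries. The first radiation library, at 49.9 FPKM, was the one that overlapped the controls. Without it the radiation difference was -0.56 (limma, adjusted p = 0.0386), and without the second radiation library, the lowest, it was -0.23 (limma, adjusted p = 0.331). Leaving out any other single library gave -0.31 to -0.47, none of them called.

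Krt13 was low in controls and higher in every treated library. The gene (ENSMUSG00000044041) lies at chr11:100117327-100121566 on the minus strand. It measured 6.26, 5.82 and 5.59 FPKM in the combination, 2.65, 2.47 and 1.86 FPKM with nintedanib, 3.36, 4.03 and 2.74 FPKM with radiation and 1.36, 1.17 and 1.21 FPKM in controls. No pair of groups overlapped: the order was combination, radiation, nintedanib, control. Of all genes tested, 22.2% (combination against nintedanib) to 56.8% (combination against control) did not overlap in the pairs compared. The share was not counted for nintedanib against radiation, and the contrasts of radiation had chosen Krt13. The closest libraries were the lowest irradiated one, at 2.74 FPKM, and the highest nintedanib one, at 2.65 FPKM.

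The mean Krt13 level was 5.89 ± 0.343 FPKM in the combination, 2.33 ± 0.414 FPKM with nintedanib, 3.38 ± 0.641 FPKM with radiation and 1.25 ± 0.0967 FPKM in controls (SD, n = 3 each). Krt13 rose with nintedanib in both backgrounds. It was 1.87 times the control level with the drug alone, a log2 difference of 0.56 ± 0.118 (SE; limma, adjusted p = 0.00283). It was 1.74 times the irradiated level in the combination, a log2 difference of 0.66 (limma, adjusted p = 0.0013). Without the third nintedanib library the first of these was 0.67 (limma, adjusted p = 0.00123). Both tests reuse libraries in which Krt13 was selected, so they are not independent of that choice. The radiation contrasts, which chose the gene, were 2.71-fold against control (log2 difference 0.95) and 2.53-fold for the combination against nintedanib (log2 difference 1.06). The combination stood 4.73-fold above control, where the product of both single ratios was 5.06, and the interaction was 0.10 ± 0.167 (SE, log2, no test).

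**Figure D1:**
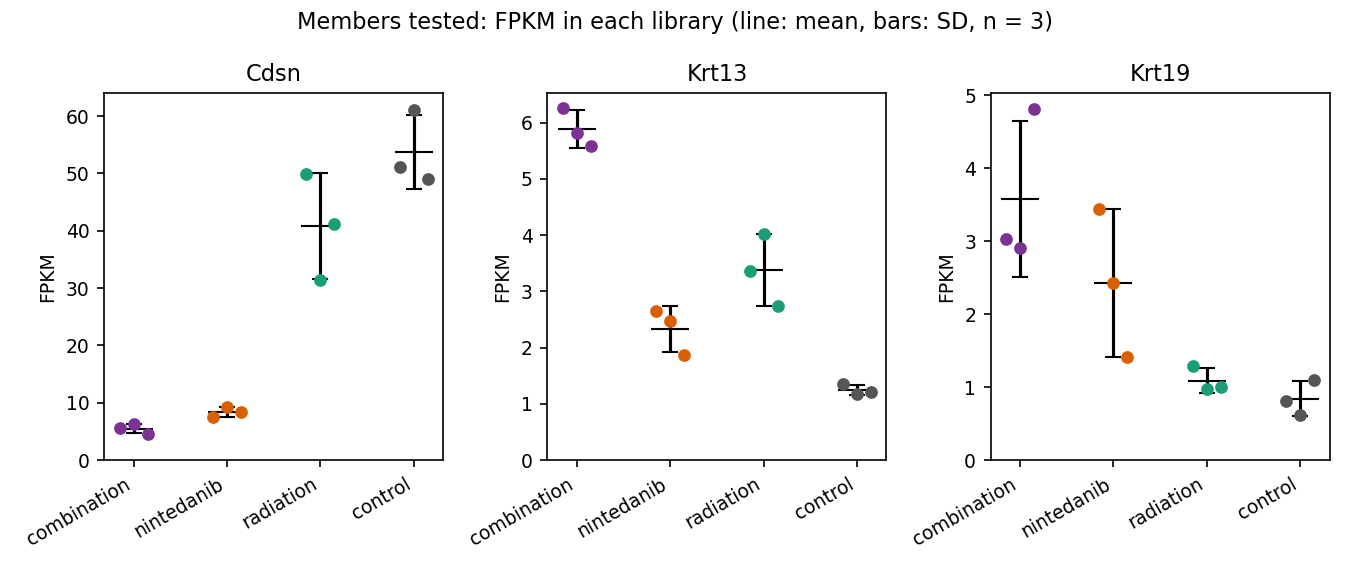
FPKM of Cdsn, Krt13 and Krt19 in each of the 12 libraries, by group. Points are libraries, lines are group means and bars are the SD (n = 3). The 6 libraries with nintedanib sit at 4.60 to 9.32 FPKM for Cdsn, below the 6 without it at 31.4 to 61.1 FPKM, while for Krt13 and Krt19 the combination has the highest mean of the 4 groups.

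Krt19, a short type I keratin of gut and ductal epithelium, rose with nintedanib with or without radiation. The gene (ENSMUSG00000020911) lies at chr11:100140810-100148665 on the minus strand, 19.24 kb from Krt13. It measured 3.03, 2.90 and 4.81 FPKM in the combination, 3.45, 2.43 and 1.41 FPKM with nintedanib, 1.29, 0.981 and 0.999 FPKM with radiation and 0.812, 0.623 and 1.09 FPKM in controls. The drug-treated libraries all lay above the libraries without the drug, and irradiated and unirradiated ranges overlapped both with and without the drug. The third nintedanib library was the lowest with the drug. Krt19 reached 1 FPKM in 8 libraries: all 6 with the drug, 1 irradiated and 1 control. It therefore passed the filter through the groups in which it was higher, so its tests are also given from a fit with no filter, over all 30404 genes with any signal.

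The mean Krt19 level was 3.58 ± 1.07 FPKM in the combination, 2.43 ± 1.02 FPKM with nintedanib, 1.09 ± 0.171 FPKM with radiation and 0.843 ± 0.236 FPKM in controls (SD, n = 3 each). Nintedanib alone gave 2.88 times the control level, a log2 difference of 0.86 ± 0.215 (SE; limma, adjusted p = 0.00764, and 0.0283 with no filter). Without the third nintedanib library that difference was 1.09 (limma, adjusted p = 0.00135). The combination gave 3.29 times the irradiated level, a log2 difference of 1.11 (limma, adjusted p = 0.00224, and 0.00961 with no filter). It gave 4.25 times the control level, a log2 difference of 1.30 (limma, adjusted p = 0.000498, and 0.00252 with no filter). No change with radiation passed the test. The log2 difference was 0.19 against control (limma, adjusted p = 0.596) and 0.44 for the combination against nintedanib (limma, adjusted p = 0.263). The second of these depended on single libraries: it was 0.21 without the third nintedanib library (limma, adjusted p = 0.619), 0.25 without the third combination library (limma, adjusted p = 0.582) and 0.65 without the first nintedanib library (limma, adjusted p = 0.096). The interaction was 0.25 ± 0.304 (SE, log2; limma, adjusted p = 0.721), and the product of the single ratios was 3.73, beside the observed 4.25.

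With so few members, their calls were set beside those of all genes. Leaving out the contrasts on which a gene was selected, 2 members were called with nintedanib against control, Krt13 and Krt19, both higher, with groups that did not overlap. Of all genes tested 41.6% were called there (19.7% higher and 22% lower), and 51.1% had groups that did not overlap. For the combination against radiation both testable members, again Krt13 and Krt19, were called higher and did not overlap. The background there was 34.4% called (17.2% higher and 17.3% lower) and 47.4% without overlap. For the combination against control the 1 testable member, Krt19, was called higher and did not overlap, beside 47.2% of all genes called (22.3% higher and 25% lower) and 56.8% without overlap. The drug thus called a large share of all genes. Krt19 passed the filter through its drug-treated libraries, and the tests of Krt13 reuse libraries that chose it, so these counts are a description.

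For radiation against control limma called 0 of the 2 testable members, Cdsn and Krt19, although Cdsn had an unadjusted p under 0.05, and both overlapped. Of all genes 17.9% were called (8.04% higher and 9.9% lower) and 41.8% did not overlap. For the combination against nintedanib limma also called 0 of the 2, with Cdsn again at an unadjusted p under 0.05. Cdsn did not overlap and Krt19 did, beside 5.55% of all genes called (3.17% higher and 2.37% lower) and 22.2% without overlap. Voom on the recovered fragments called 0 in both comparisons. In the interaction 0.00769% of all genes, a single gene, was called. The comparisons with control share the same 3 control libraries. The balance of calls over all genes moved with the scaling. With radiation 44.8% of called genes were higher, but 69.8% were once libraries were scaled to a common FPKM sum, and the nintedanib shares were 47.2% and 60%. Krt13 and Krt19 kept their direction and their calls under that scaling.

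**Figure D2:**
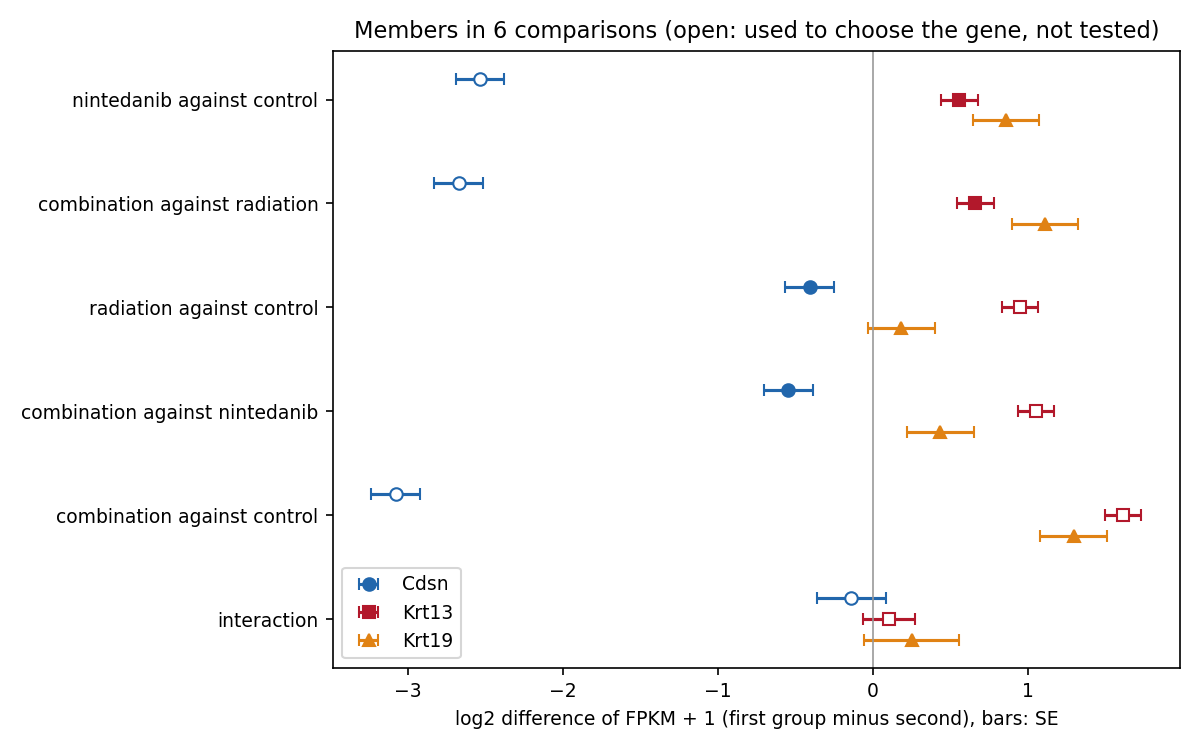
Log2 differences of FPKM + 1 for Cdsn, Krt13 and Krt19 in 6 comparisons, first group minus second, with the SE as bars. Filled symbols were tested and open ones chose the gene: Cdsn lies at -2.54 to -3.08 in the 3 comparisons that add the drug, and Krt13 and Krt19 lie to the right of 0 in the 5 comparisons between groups.

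Krt8 and Krt18, the pair that marks simple epithelium, were low, as were Krt7 and Krt20. None of these 4 genes reached 1 FPKM in any library, so none was in the main test. Krt8 (ENSMUSG00000049382, chr15:101996698-102004482, minus strand) had 14, 21 and 17 fragments in the combination libraries, 5, 8 and 3 in the nintedanib libraries, 0, 4 and 11 in irradiated ones and 0, 6 and 0 in controls. At 3 fragments a library, the limit for Krt8 was 0.082 to 0.0937 FPKM. The combination libraries were all above that limit and above all others, and the other 3 groups overlapped. The sums were 52 fragments in the combination, 16 with nintedanib, 15 with radiation and 6 in controls, and the means were 0.497, 0.152, 0.142 and 0.0590 FPKM in that order. In the fit with no filter, Krt8 was called higher in the combination against control (log2 difference 0.50; limma, adjusted p = 0.00702) and against radiation (log2 difference 0.40; limma, adjusted p = 0.0335), beside 10.9% and 6.79% of the genes in that fit. Voom without a filter called only the first of these, with adjusted p = 0.00202 against control and 0.0618 against radiation. Leaving out 1 library at a time gave adjusted p of 0.00352 to 0.0337 against control and 0.0111 to 0.118 against radiation (limma). The call against radiation was lost without control 3, nintedanib 1, radiation 1, radiation 2, combination 2 or combination 3. The combination against nintedanib was not called (limma, adjusted p = 0.122). A non-coding gene on the opposite strand, Gm36026, overlaps Krt8 and measured at most 0.206 FPKM. The strand setting of the counting is not given in the sources used here, so reads of both genes cannot be told apart. A processed copy, Krt8-ps, held 0 to 5 fragments a library.

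The partner Krt18 (chr15:102028180-102032027, plus strand), 23.7 kb from Krt8, had 2 fragments in the first control library, 1 in the third irradiated library and 0 in the other 10. At 3 fragments a library, the level that a count of 0 allows was 0.112 to 0.128 FPKM. In the combination libraries Krt18 was thus under that limit while Krt8 averaged 0.497 FPKM. Krt20 (chr11:99428403-99438150, minus strand) had 1 fragment in the first irradiated library, 1 in the second combination library and 0 elsewhere, with a limit of 0.0833 to 0.0952 FPKM. Krt7 (chr15:101411043-101430313, plus strand) had 16, 6 and 7 fragments in the combination, 3, 14 and 10 in the nintedanib libraries, 5, 9 and 11 in irradiated ones and 6, 5 and 5 in controls. Its 4 groups overlapped, and no comparison was called with no filter (limma, adjusted p 0.488 to 1). An antisense gene, Gm671, overlaps Krt7.

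**Figure D3:**
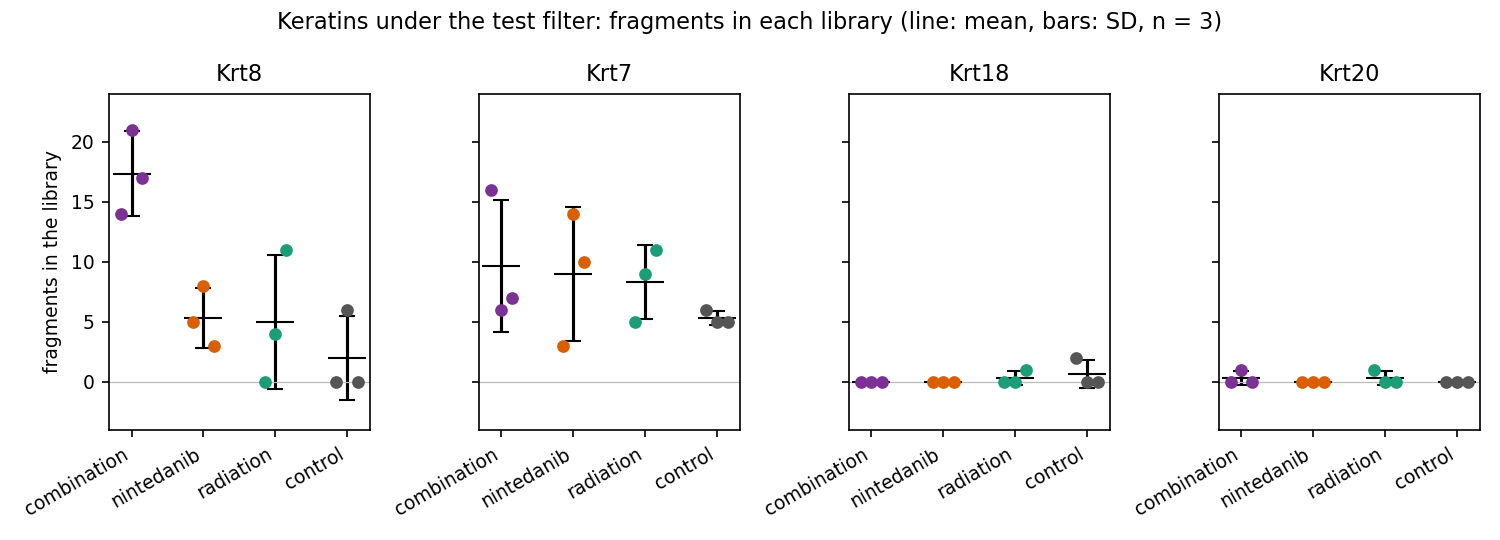
Fragments of Krt8, Krt7, Krt18 and Krt20 in each library, by group. Points are libraries, lines are means and bars the SD (n = 3), and the axis starts below 0 to show the bars. The 3 combination libraries hold 14 to 21 Krt8 fragments and all others 0 to 11, while Krt18 and Krt20 never exceed 2.

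The keratins that MC38 cells did express were mostly of another kind. Of the 54 keratin genes in the table, 48 are not among the 7 chosen genes, and 5 of those passed the filter: Krt14, Krt80, Krt16, Krt10 and Krt86. Another 25 were above 0 but under 1 FPKM, the highest being Krt17 at 0.542 FPKM, and 18 were listed at 0 in every library. Krt14, the type I keratin of basal keratinocytes, was the most abundant of them all, with 144, 168 and 204 FPKM in the combination, 263, 209 and 199 FPKM with nintedanib, 126, 143 and 142 FPKM with radiation and 207, 250 and 228 FPKM in controls. Its type II partner in basal cells, Krt5, reached at most 0.0772 FPKM. Krt14 fell with radiation (log2 difference -0.73; limma, adjusted p = 0.00579) and with the combination against control (log2 difference -0.42; limma, adjusted p = 0.0282, not called in 5 of 20 alternative settings).

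Krt80, a type II keratin of many differentiating epithelia, measured 20.5, 18.8 and 25.0 FPKM in the combination, 39.6, 30.6 and 26.9 FPKM with nintedanib, 8.91, 9.98 and 10.8 FPKM with radiation and 20.7, 20.5 and 20.3 FPKM in controls. It rose with nintedanib (0.62; limma, adjusted p = 0.00345) and fell with radiation (-0.98; limma, adjusted p = 0.000967). The drug in irradiated cells gave 1.03 for the combination against radiation (limma, adjusted p = 0.000177). Radiation in drug-treated cells gave -0.57 for the combination against nintedanib (limma, adjusted p = 0.0336, called in 10 of 20 alternative settings). In the combination its log2 difference from control was 0.05 (limma, adjusted p = 0.781), with 1 library below and 1 above the narrow control range. Krt16, a type I keratin of activated skin cells, averaged 6.63 FPKM in the combination, 4.44 FPKM with nintedanib, 5.06 FPKM with radiation and 3.76 FPKM in controls, and rose with the combination against control (0.68; limma, adjusted p = 0.000973). Krt86, a hair keratin near the filter, averaged 1.01 FPKM in the combination, 0.323 FPKM with nintedanib, 1.07 FPKM with radiation and 0.298 FPKM in controls. It reached 1 FPKM in irradiated libraries only, with or without the drug, and so passed the filter through the groups in which it was higher. With no filter its log2 difference was 0.60 for the combination against control (limma, adjusted p = 0.0409) and 0.66 for radiation against control (limma, adjusted p = 0.0653). Over the 5 tested genes, 1 rose and 0 fell with nintedanib, 1 rose and 2 fell with radiation, and 2 rose and 1 fell with the combination against control, Krt86 being among the risen ones in the last pair. Of all genes tested 19.7%, 8.04% and 22.3% were called higher and 22%, 9.9% and 25% lower in that order. The median log2 differences were 0.08, -0.02 and 0.05, beside -0.02, -0.04 and -0.03 over all genes. With no filter 30 of the 48 had a signal: 1 rose and 0 fell with nintedanib, 0 rose and 2 fell with radiation, and 2 rose and 0 fell with the combination. Of all genes in that fit 7.78%, 2.91% and 10.9% were called higher and 8.4%, 2.86% and 10% lower.

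**Figure D4:**
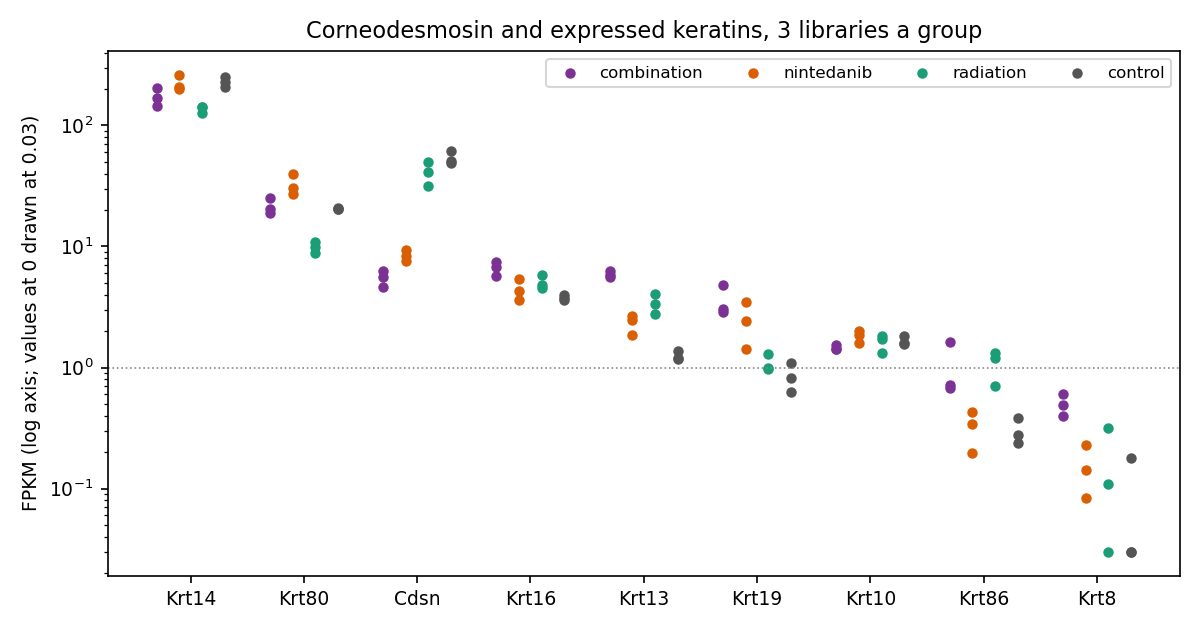
FPKM of Cdsn, the tested keratins and Krt8 on a log axis, 3 libraries a group, with values at 0 drawn at 0.03. The dotted line is the filter at 1 FPKM. Krt14 lies at 126 to 263 FPKM, above all other keratins, and Krt8 stays below the line in every library.

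Desmosome genes, the setting in which corneodesmosin works in skin, were sparsely expressed. Of 16 genes on the list 5 passed the filter, the plakophilins Pkp1 to Pkp4 and plakoglobin (Jup), all plaque proteins that tie desmosomal cadherins to filaments. The cadherins were all under the filter: Dsg2 reached at most 0.00679 FPKM. Desmoplakin (Dsp), the keratin anchor, reached at most 0.0346 FPKM, and Perp was listed at 0. Of the 5 tested genes 3 rose and 0 fell with nintedanib, 4 rose and 0 fell with radiation, and 5 rose with the combination against control. Of all genes tested 19.7%, 8.04% and 22.3% were called higher in the same comparisons. The list's medians were 0.42, 0.44 and 0.67, beside -0.02, -0.04 and -0.03 over all genes. Pkp2 and Pkp3 were under 1 FPKM in at least 1 control library and passed the filter with the help of treated ones. With no filter, 14 genes of the list had a signal: 2 rose with nintedanib, 2 with radiation and 5 with the combination, and 0 fell, beside 7.78%, 2.91% and 10.9% of all genes called higher. The calls of Pkp3 with either single treatment and of Jup with radiation were lost there. Pkp3 averaged 2.68 FPKM in the combination, 1.14 FPKM with nintedanib, 1.41 FPKM with radiation and 0.599 FPKM in controls, a log2 difference of 1.19 for the combination against control (limma with no filter, adjusted p = 0.000292). Jup rose by 0.59 with nintedanib (limma, adjusted p = 0.00183). Pkp1 rose by 0.71 with radiation (limma, adjusted p = 0.000213) and fell by 0.39 when the drug was added to radiation (limma, adjusted p = 0.00216).

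Among 41 genes of the cornified envelope and its proteases, 8 passed the filter, and 3 of those (Cnfn, Psors1c2 and Tgm5) were under 1 FPKM in at least 1 control library. With the combination against control 6 rose and 0 fell, with a median of 0.83 beside -0.03 over all genes, of which 22.3% were called higher. With no filter 23 genes of the list had a signal, and 8 rose and 0 fell in that comparison, beside 10.9% of all genes called higher. Cnfn was called with the filter but not without it (limma with no filter, adjusted p = 0.0659). With the filter, each single treatment against control had 2 risen genes, Klk14 and Tgm5, and 0 fallen ones. Of all genes tested 19.7% were called higher with nintedanib and 8.04% with radiation. With no filter 4 rose with nintedanib, Scel and Spink5 being added, and 2 with radiation, and 0 fell. The shares of all genes called higher there were 7.78% and 2.91%. Klk14, a kallikrein that can activate other proteases of skin shedding, averaged 8.88 FPKM in the combination, 4.33 FPKM with nintedanib, 3.87 FPKM with radiation and 1.76 FPKM in controls, a log2 difference of 1.83 for the combination against control (limma, adjusted p = 8.82e-06). Tgm5, a transglutaminase that cross-links envelope proteins, averaged 4.40 FPKM in the combination, 3.01 FPKM with nintedanib, 2.01 FPKM with radiation and 0.944 FPKM in controls, a log2 difference of 1.48 for the combination against control (limma with no filter, adjusted p = 7.16e-06). Sprr1a, an envelope precursor, rose by 1.31 in the combination against radiation (limma, adjusted p = 0.000598). Sbsn, a secreted protein of upper epidermis, rose by 1.12 in the combination against control (limma, adjusted p = 0.0019). The proteases best known for cutting corneodesmosin were absent or nearly so: Klk5 was listed at 0 and Klk7 reached at most 0.0595 FPKM. The late markers Ivl and Lor were also listed at 0.

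**Figure D5:**
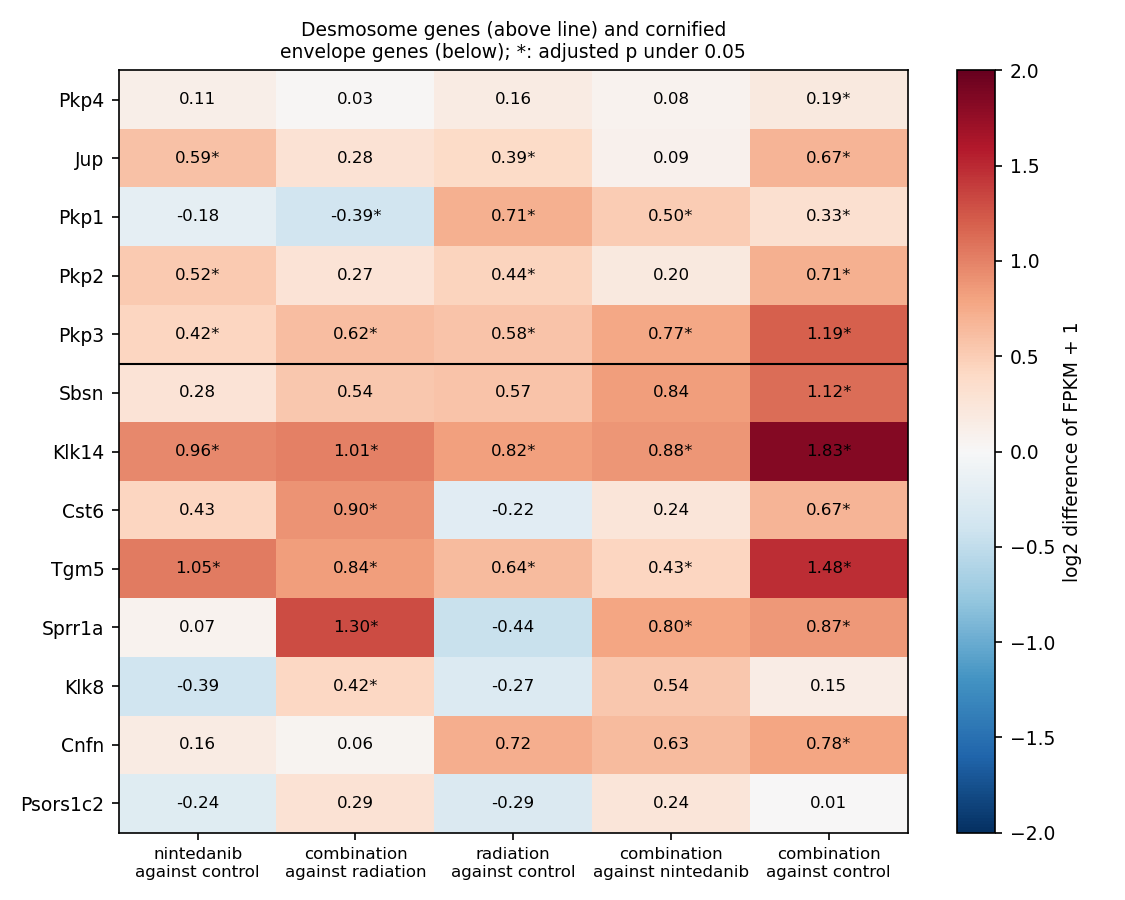
Log2 differences of FPKM + 1 for the 5 tested desmosome genes and the 8 tested cornified envelope genes in 5 comparisons. Colour and number give the difference and an asterisk an adjusted p under 0.05. In the combination against control 11 of the 13 cells carry an asterisk, all of them higher, beside 22.3% of all genes tested called higher. Of these, Cnfn was not called with no filter. Cdsn itself was -3.08 there, a difference that includes the contrast that chose it and was not tested.

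Other epithelial genes did not move as one. Of 26 epithelial transcription factors 6 were tested. Against control, 0 rose and 3 fell with nintedanib, 0 rose and 2 fell with radiation, and 0 rose and 4 fell with the combination. Klf4 and Tfap2a fell in each of these, and Sox9 with nintedanib and with the combination. The log2 difference of Klf4 was -0.49 with nintedanib (limma, adjusted p = 0.0044) and -0.66 with radiation (limma, adjusted p = 0.0029). Of all genes tested 22%, 9.9% and 25% were called lower in that order. With no filter 22 of the factors had a signal, and 2, 1 and 4 fell, beside 8.4%, 2.86% and 10% of all genes called lower. Of 25 junction and surface genes 4 were tested. With the combination against control 1 rose, Cdh1 (log2 difference 0.76; limma, adjusted p = 1.84e-05), and 0 fell. The list's median there was 0.03, beside -0.03 over all genes, of which 22.3% were called higher. With nintedanib 1 rose and 1 fell, beside 19.7% and 22% of all genes. The fallen one was Cdh3 (-0.65; limma with no filter, adjusted p = 0.005). With no filter 24 of the list had a signal, and 4 rose and 0 fell with the combination, beside 10.9% of all genes called higher. Of 22 other intermediate filament and linker genes 13 were tested. With the combination against control 4 rose and 1 fell, beside 22.3% of all genes called higher and 25% lower. Des and Nes, among the 4, were under 1 FPKM in controls and were also called with no filter. There 5 of 20 rose and 1 fell, beside 10.9% of all genes called higher and 10% lower. Another of the 4 was Prph, a filament protein of neurons, at 1.27 (limma, adjusted p = 0.000131). Of the 10 colon epithelium markers only Cdh1 and Lgals4 reached 1 FPKM. Cdh1 alone averaged 8.3 FPKM in the combination, 5.3 FPKM with nintedanib, 5.7 FPKM with radiation and 4.5 FPKM in controls. Summed over all 10, expression was 9.38 to 10.5 FPKM in the combination, 6.33 to 7.34 FPKM with nintedanib, 6.90 to 7.40 FPKM with radiation and 6.06 to 6.35 FPKM in controls. Summed over 8 leukocyte markers it was 17.4 to 20.1 FPKM in the combination, 14.7 to 15.1 FPKM with nintedanib, 4.95 to 5.84 FPKM with radiation and 3.86 to 4.79 FPKM in controls, of which only Cd68 and Lyz2 reached 1 FPKM, while Ptprc, a general leukocyte marker, stayed at or below 0.0292 FPKM. Whether these markers bear on the keratin differences was not tested.

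Around Cdsn no gene overlapped it, and the expressed neighbour on one side, Cchcr1, 21.1 kb away, moved little: it fell by 0.38 with the combination against control (limma, adjusted p = 0.00321) and by 0.27 with radiation (limma, adjusted p = 0.0486). Psors1c2, 17.5 kb away and another gene of the cornified layer, was not called in any comparison. Sfta2 stayed at or below 0.465 FPKM and 2300002M23Rik was listed at 0. Krt13 and Krt19 lie in the type I keratin cluster, and Krt15, between them at 10.2 kb from Krt13 and 4.88 kb from Krt19, stayed at or below 0.173 FPKM, Krt36 at or below 0.0677 FPKM and Krt35 at 0. Beside Krt8 and Krt18, Eif4b, a translation factor, fell by 0.54 with nintedanib (limma, adjusted p = 0.000334) and Tns2, a focal adhesion protein, rose by 0.40 (limma, adjusted p = 0.00455).

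The genes whose levels followed each member most closely over the 12 libraries were named by Pearson r of log2(FPKM + 1), as a description in which treatment is shared by all points. For Cdsn they were Rhbdd1 (0.996), Cdc42se2 (0.993), Aldh1l2 (0.99), Uri1 (0.987) and Glce (0.987). For Krt13 they were Acap1 (0.97), Fam129a (0.967), Coro6 (0.965), Stard10 (0.962) and Gfra1 (0.957). Some of these lay near the filter. Acap1 and Coro6 had means above 1 FPKM only in the combination (1.46 and 1.61 FPKM), where Krt13 was also highest, beside 0.127 and 0.291 FPKM in controls. Fam129a averaged 0.318 FPKM in controls. For Krt19 they were Wdr62 (0.969), Pgk1 (0.962), Hk1 (0.962), Slc5a5 (0.958) and P4hb (0.955). Among the members, r was -0.906 between Cdsn and Krt19, -0.655 between Cdsn and Krt13 and 0.7 between Krt13 and Krt19.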

How the data were processed

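Total RNA of 12 MC38 cultures was purified on columns and made into libraries with a SMARTER kit for mRNA, per the labels' protocols. The authors deposited FPKM values per gene with coordinates and gene lengths, per the file headers, and the submitters' processing notes name GRCm38 (mm10). The aligner, the counter, the annotation release and strandedness were not given in the sources used here. Groups and replicate numbers came from the sample titles, which are also the column names.

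All nonzero FPKM values times gene length were whole multiples of 1 step (100% within 0.01 of a step), which gave the fragments per gene. Relative to each library's fragment total, the implied depth was 1.00 to 1.03 after treatment and 0.970 to 0.982 without, so a factor of unstated origin had been applied. Without molecular identifiers, fragments are not independent molecules: depths and limits of detection, set at 3 fragments, cover counting error only. Replicates differed by more than sampling noise (chi-square per gene 4.53 to 33.1) and were counted separately. The series' design text states independent repeats but not how they were made, so p-values measure the spread between these cultures.

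Log2(FPKM + 1) was fitted with limma 3.58.1 (intensity trend, two-sided) in R 4.3.3, a mean per group over 12 libraries and 8 residual degrees of freedom, with Benjamini-Hochberg adjustment over 13012 genes. This was done for 6 comparisons, with calls at 0.05. The interaction is the drug effect in irradiated minus that in unirradiated cells. In data simulated for nintedanib against control, with 200 of 13012 genes changed, the fit called 90% of log2 changes of 1, 98% of changes of 2, and 9 of 12812 unchanged genes. In the measured data 41.6% of genes were called in that comparison, a far larger share, so these rates need not hold there. Alternatives were a pseudocount of 0.1, no filter, 2 other scalings, voom on recovered fragments, a replicate block, separate fits per comparison, and leaving out each library. Voom with no filter was added after seeing the data.

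The members and gene lists were chosen with earlier results of these data known. Named were the members, their overlapping and nearest genes, the 5 genes most like each tested member, and of each list the most abundant genes and those that changed at least 1 on the log2 scale. Other list genes, such as Jup, Krt5, Krt17, Klk5 and Klk7, were named after their values were seen. Promoters were taken from RefSeq tables.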

Additional observations from a re-analysis of the deposited data

How the results depend on the processing

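Under 20 alternative settings (19 for the interaction), the tested differences of Krt13 and Krt19 kept their direction, and each call with nintedanib stayed past the threshold. The settings draw on the same libraries, so they do not free the tests of Krt13 from the choice of that gene. Adjusted p from limma or voom was 0.00123 to 0.0131 for Krt13 with nintedanib against control, 0.00071 to 0.00604 for Krt13 in the combination against radiation, 0.00135 to 0.0310 for Krt19 with nintedanib, 0.000689 to 0.0101 for Krt19 in the combination against radiation and 0.000145 to 0.00279 for Krt19 in the combination against control. Cdsn, untested, was -2.44 to -2.66 with nintedanib and -2.52 to -2.87 in the combination against radiation. The untested Krt13 difference with radiation was 0.95 but 1.35 with a pseudocount of 0.1 and 1.48 with voom, which add less to low values, and its interaction was of either sign, -0.12 to 0.21. The Cdsn interaction was also of either sign, -0.31 to 0.02.

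Leaving out single libraries gave 1145 to 2606 called genes for radiation against control, beside 2334 with all of them (1333 without control 2, 1250 without control 3, 1523 without radiation 1 and 1145 without radiation 2), and 0 to 1 called members. That member was Cdsn, without radiation 1. For the combination against nintedanib, 722 genes were called with all libraries, 269 to 652 with 1 left out (357 and 453 without nintedanib 2 and 3, 269 and 432 without combination 2 and 3), 43 with only those groups fitted and 444 with the replicate block. Between 0 and 1 members were called there with 1 library left out, Cdsn having adjusted p = 0.0486 without radiation 1 and 0.0402 without radiation 2 (limma). For the combination against control 2 members were called with no filter, by limma and by voom, Krt8 being added to Krt19. The interaction called 1 gene of all tested, but 0 with a pseudocount of 0.1, 12 with no filter, 4 at a common FPKM sum, 0 scaled by fragment totals, 2 with voom (2 also without a filter), 0 with the replicate block and 0 to 5 without 1 library. A common sum moved the median interaction of all genes to -0.10 from 0.01. The cause of these shifts was not tested.

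Same-numbered libraries did not deviate together: of 18 pairs 3 correlated over 0.1 (-0.298 to 0.202), and 4 of 12 libraries correlated best with their own number. With the replicate block no member call changed. Called genes were 5091 for nintedanib, 1795 for radiation and 5785 for the combination, each against control, and 4074 for the combination against radiation. Genes near 1 FPKM rest on few fragments, which limits what can be seen of Krt7, Krt8, Krt18 and Krt20.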
